A study of Mus musculus with 8 samples.

Results

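The aminoacyl-tRNA synthetase genes were followed through RNA-seq of mouse embryos treated with trimetazidine (TMZ), which the study used as an inhibitor of long-chain 3-ketoacyl-CoA thiolase, an enzyme of fatty acid β-oxidation. The members were 35 genes chosen by name, 19 for cytosolic enzymes and 16 for mitochondrial enzymes, the latter with symbols ending in 2. The deposited tables hold no gene names, so each entry was assigned to a gene from the length recovered from its values and from its place in Ensembl identifier order. Assignments with a posterior probability of 0.95 or more were used. This kept 29 of the 35 members among 31899 entries at the 8-cell stage, 18 cytosolic and 11 mitochondrial, and 30 among 29202 entries at the morula stage, 18 cytosolic and 12 mitochondrial. All 29 members kept at the 8-cell stage were also kept at the morula stage. The entry length fitted the reference length exactly for 9 of the 29 and 9 of the 30. Those of Farsa, Gars1, Eprs1, Lars1, Vars1, Ears2, Lars2 and Pars2, among others, differed from it.

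There were 4 groups of 2 libraries: control 8-cell embryos, 8-cell embryos in 100 μM TMZ, control morulae and morulae in 100 μM TMZ. The labels put the addition of the drug at the 2-cell stage, while the study's methods speak of both the zygote and the 2-cell stage, the controls are labelled WT, and embryos of every group grew in KSOM medium. The study used ICR mice, and the number of embryos in a library is not given in the sources used here. The study calls the libraries biologically independent, but its methods give more replicates than these libraries and the labels do not say whether they came from separate batches of embryos, so the p-values may measure technical spread only. Values are FPKM, fragments scaled by gene length and by the fragment total of the library, and the libraries held between 31672356 and 64814423 fragments. The TMZ libraries of the 8-cell stage have identical column headers and are called A and B. The SD of log2(FPKM + 1) between replicates had a median over entries of 0.32 for 8-cell TMZ and 0.22 for 8-cell control, against 0.15 and 0.17 for morula TMZ and control. Of 10 embryo markers, 10 were assigned at the 8-cell stage and 8 in morulae, and 8 at each stage averaged 1 FPKM or more, among them Pou5f1 at 10.9 to 42.4 FPKM and Dppa3 at 10695 to 19500 FPKM. In 8-cell libraries Cdx2 had at most 1.10 FPKM, and Sox2 was listed at 0 in control replicate 1 and TMZ library A with at most 0.120 FPKM elsewhere. Of markers of other cells, the summed levels of those assigned were at most 0.170 FPKM for cumulus cells (1 of 8 assigned at the 8-cell stage and 4 in morulae) and 0.0542 FPKM for fibroblasts (3 of 4 and 0 of 4). For blood (3 of 4 and 1 of 4) they were 2.67 to 11.8 FPKM at the 8-cell stage, nearly all Hba-a1, and at most 0.0165 FPKM in morulae. For oocyte markers (7 of 7 at each stage) the sums were higher, at 23.0 to 36.5 FPKM in 8-cell libraries and 11.3 to 19.1 FPKM in morulae. Among these Zp3 stood at 5.37 to 26.0 FPKM over the libraries of both stages.

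Aminoacyl-tRNA synthetases attach each amino acid to its tRNA and so supply translation with its substrates. Cytosol and mitochondria mostly use enzymes of separate nuclear genes, while Gars1 and Kars1 each encode the glycyl- and lysyl-tRNA synthetase of both compartments, and mammalian mitochondria make glutaminyl-tRNA by charging it with glutamate through Ears2 and converting it with an amidotransferase. Several cytosolic enzymes, among them those of Eprs1, Iars1, Kars1, Lars1, Mars1, Qars1 and Rars1, sit together in the multisynthetase complex. ATF4, a transcription factor translated when eIF2α is phosphorylated, is known to raise many cytosolic synthetase genes through C/EBP-ATF response elements.

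Promoters were searched because the list of ATF4 target synthetases enters the comparisons. The core of the C/EBP-ATF response element, TGATGNAA, was looked for on both strands in RefSeq promoter windows of GRCm38.p6 running from 250 bases before to 50 bases after the start site. Of the 35 members, 26 matched a gene of that table, 12 cytosolic and 14 mitochondrial. The core lay in the windows of 5 of the 12 cytosolic genes and 0 of the 14 mitochondrial genes, while 4.51% of all 27025 genes of the table held it. The 5 genes were Aars1, Gars1, Iars1, Tars1 and Yars1, all of the ATF4 target list. Of the same list, Eprs1, Mars1 and Sars1 lacked the core, and Cars1, Lars1, Nars1 and Wars1 had no window to search. A stretch around a match in each gene is printed on the strand of the gene, with the core in capitals, which reads as its reverse complement in all but Yars1, and the number is the position of the first capital counted from the start site at 0.
Aars1 (chr8:111033840-111033869, + strand, position 9): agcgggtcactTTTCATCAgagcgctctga
Gars1 (chr6:55037960-55037989, + strand, position -30): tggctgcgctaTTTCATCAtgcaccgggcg
Iars1 (chr13:49682126-49682155, + strand, position 7): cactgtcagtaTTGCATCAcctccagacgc
Tars1 (chr15:11399655-11399684, - strand, position -15): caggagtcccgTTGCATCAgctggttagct
Yars1 (chr4:129189895-129189924, + strand, position 3): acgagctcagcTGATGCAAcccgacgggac
A match is a description of these letters and says nothing of whether a factor bound there.

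Levels in FPKM differed widely between members. FPKM divides by the entry length, which ran from 2447 bases for Hars1 to 18102 for Eprs1. These lengths were aligned to the joined exons of a gene's transcripts, not to the length of 1 mRNA. Orders and medians of level may therefore depend on them, which was not tested. In control morulae the 18 cytosolic members had a median of 26.3 FPKM and the 12 mitochondrial members a median of 1.96 FPKM (means of 2 libraries). In control 8-cell embryos the medians were 16.5 FPKM for 18 cytosolic and 1.45 FPKM for 11 mitochondrial members. Rars1, the cytosolic arginyl-tRNA synthetase, stood at 126 and 138 FPKM in control morulae, 150 and 157 FPKM in TMZ morulae and 106 to 143 FPKM at the 8-cell stage. Below it in control morulae, leaving Vars1 aside, came Farsb, the β subunit of phenylalanyl-tRNA synthetase, at 72.2 and 70.8 FPKM, and then Nars1, the asparaginyl enzyme, at 57.9 and 59.4 FPKM. Kars1 (44.9 and 50.9 FPKM) and Farsa, the α subunit of the phenylalanyl enzyme (39.3 and 40.9 FPKM), followed without overlap between neighbours. Gars1 and Yars1 overlapped, and so did each of Qars1, Rars2, Sars1 and Wars2 with the next, Tars1 being the last of this run. Aars1, the alanyl enzyme, had the lowest control mean of the cytosolic members assigned at both stages, at 3.31 ± 0.037 FPKM in control morulae (SD, n = 2).

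Among mitochondrial members Rars2 and Wars2, the arginyl and tryptophanyl enzymes, stood apart at 24.4 and 19.9 FPKM and at 16.5 and 19.2 FPKM in control morulae. Rars2 also ranked first of them at the 8-cell stage, at 12.1 to 29.4 FPKM. The others assigned had at most 6.36 FPKM in any library, and in morulae 9 of the 12 had a control mean under 5 FPKM. Aars2, Iars2 and Vars2, the alanyl, isoleucyl and valyl enzymes, had at most 0.497 FPKM in any library of either stage and were not tested. Fars2 and Pars2 had a mean below 1 FPKM at the 8-cell stage only and were tested in morulae.

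**Figure D1:**
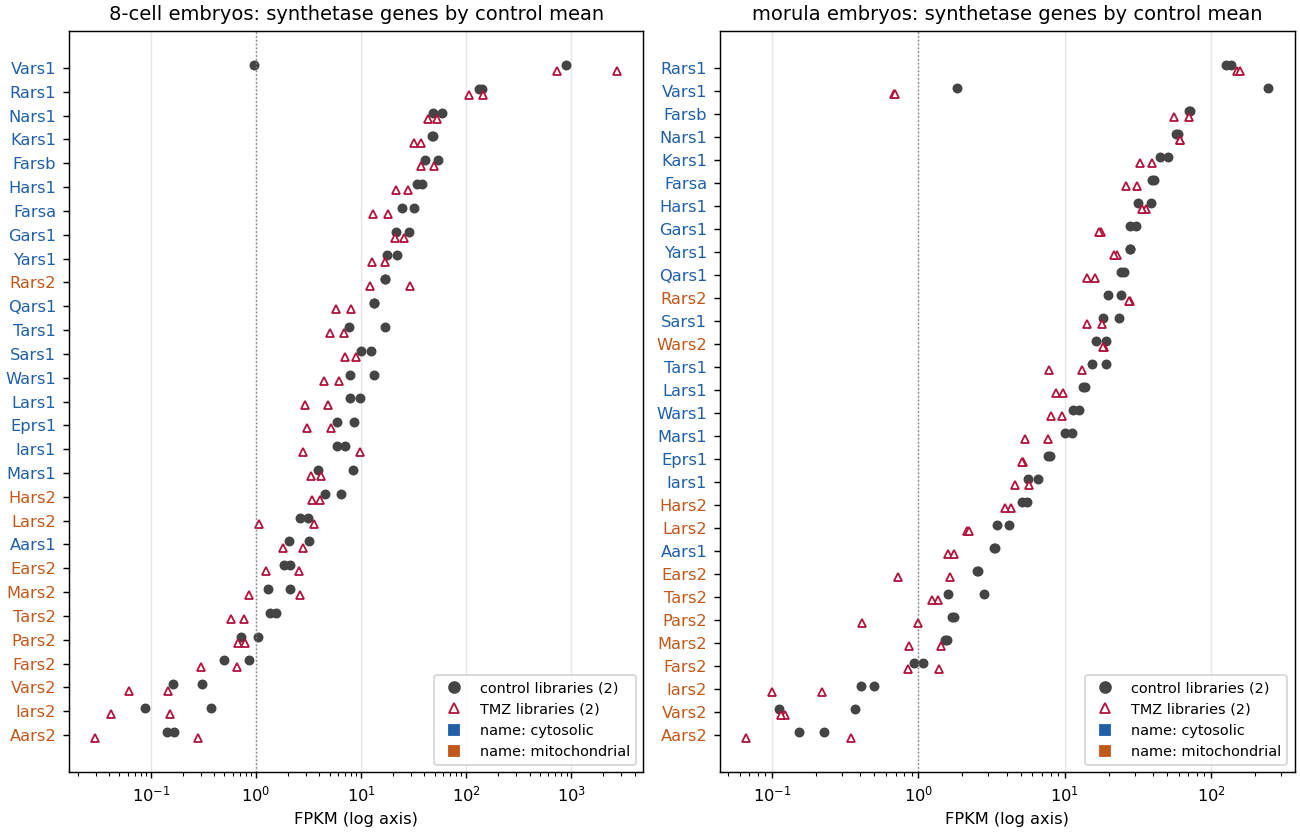
FPKM of each assigned synthetase gene (log axis) in the 2 control and 2 TMZ libraries of the 8-cell stage (left) and the morula stage (right), ordered by control mean; blue names are cytosolic, orange names mitochondrial, and the dotted line marks 1 FPKM. Most cytosolic genes lie to the right of most mitochondrial genes, Rars2 and Wars2 lie among the cytosolic ones, and the Vars1 libraries lie far apart.

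The entry assigned to Vars1, the cytosolic valyl-tRNA synthetase, stood apart from all other members. It held 881 and 0.955 FPKM in 8-cell control replicates 1 and 2 and 2744 and 728 FPKM in libraries A and B of TMZ embryos. In morulae it held 247 and 1.82 FPKM in control replicates 1 and 2 and 0.685 and 0.687 FPKM in both TMZ libraries. The control replicates of each stage thus differed by orders of magnitude, while the TMZ libraries of a stage lay closer together. The entry's length was 5608 bases against 5704 for the reference gene, at posteriors of 0.999 and 0.998. Of the exonic bases of Vars1, 8.06% lie in exons of other genes, the largest overlap being with D17H6S56E-5 on the opposite strand. Whether fragments were counted by strand is not given in the sources used here. The part of this overlap in the values was not tested, and a wrong assignment of this entry, or fragments of another RNA in it, was not tested either, so its values may not be those of Vars1. Group medians are therefore also given without Vars1, a choice made after its values were seen.

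TMZ was first compared with control at the 8-cell stage, for entries that averaged 1 FPKM or more. The threshold was an unadjusted P under 0.05 with a log2 fold change of FPKM + 1 beyond 0.5 in limma. Of the 24 members tested, 3 were lower in TMZ embryos, Lars1, Qars1 and Farsa, and 1, Vars1, was higher, against 4.96% lower and 1.35% higher of all 10021 entries tested. No entry in the table reached an adjusted p under 0.05 in limma, while 632 entries (6.31%), 4 of them members, had an unadjusted P under 0.05. In bulk libraries, fewer cells of a kind and less RNA per cell cannot be told apart. Zscan4d, a marker of the 2-cell stage, was higher in TMZ 8-cell embryos, at 0.345 and 0.163 FPKM in control and 3.89 and 2.45 FPKM in TMZ libraries, and was the only one of that list with a mean high enough to test. Its part in the synthetase values was not tested.

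Lars1, the cytosolic leucyl-tRNA synthetase, stood at 9.66 and 7.79 FPKM in control and 2.95 and 4.82 FPKM in TMZ 8-cell libraries. Both TMZ libraries lay below both controls, with a log2 fold change of -1.01 (SE 0.39, limma adjusted p = 0.771). Its mitochondrial partner Lars2 overlapped between groups, at 3.14 and 2.63 FPKM in control and 1.06 and 3.53 FPKM in TMZ libraries A and B.

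Qars1, the glutaminyl enzyme of the multisynthetase complex, stood at 13.3 and 13.4 FPKM in control and 5.70 and 8.08 FPKM in TMZ 8-cell libraries. The groups did not overlap, and the log2 fold change was -0.88 (SE 0.36, limma adjusted p = 0.771).

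Farsa stood at 31.9 and 24.6 FPKM in control and 12.97 and 17.8 FPKM in TMZ 8-cell libraries, again without overlap, with a log2 fold change of -0.84 (SE 0.34, limma adjusted p = 0.771). Farsb, whose product forms the same enzyme with that of Farsa, overlapped between groups, at 53.3 and 40.2 FPKM in control and 48.9 and 36.9 FPKM in TMZ. The mitochondrial Fars2 stood at 0.860 and 0.493 FPKM in control and 0.655 and 0.298 FPKM in TMZ libraries and was not tested.

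Vars1 had a log2 fold change of 5.09 (SE 2.16, limma adjusted p = 0.771) with overlapping groups. The value hung on the controls, since without control replicate 2 it was 0.68 and did not pass, and without control replicate 1 it was 9.50 (limma adjusted p = 7.2e-06). Its partner Vars2 stood at 0.305 and 0.163 FPKM in control and 0.145 and 0.0622 FPKM in TMZ 8-cell libraries.

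Of the 24 members 22 had a log2 fold change below 0, as had 69.1% of all entries, whose median was -0.19. The median was -0.45 for 18 cytosolic members (-0.46 without Vars1) and -0.21 for 6 mitochondrial members. Dropping library B moved these medians to -0.60 and -0.52. Dropping library A moved the mitochondrial one to -0.047, and dropping control replicate 1 moved the cytosolic one to -0.26. After median-ratio scaling, which brought the median of all entries to 0.014, the medians were -0.21 and -0.052. Of the 24 members 15 then lay below 0, against 48.6% of all entries, and Lars1 (-0.80) alone remained lower past the threshold. The split over all entries moved with the scaling, from 497 lower and 135 higher to 280 lower and 268 higher. In 12 members both TMZ libraries lay below both controls, against 29.6% of all entries, and in 0 above both, against 8.09%.

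The count at the 8-cell stage hung on single libraries. Without control replicate 1 no member was lower past the threshold (2.02% of all entries), without control replicate 2 only Tars1 was (1.91%), and without TMZ library A only Wars1 was (5.24%). Without TMZ library B there were 7, Eprs1, Farsa, Hars1, Iars1, Lars1, Qars1 and Tars1, while 15.8% of all entries were then lower.

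**Figure D2:**
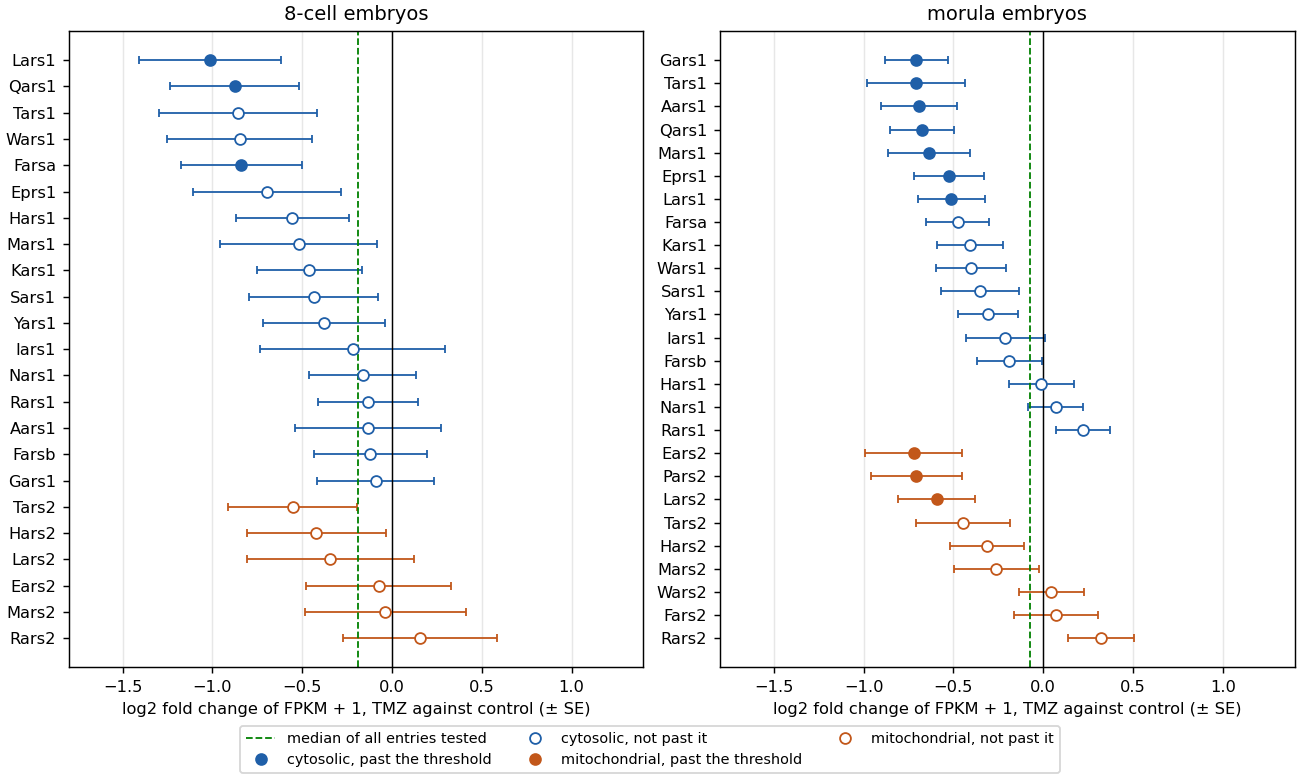
Log2 fold change of FPKM + 1 in TMZ against control embryos for each synthetase gene tested (points; bars, standard error from limma) at the 8-cell stage (left) and the morula stage (right), with Vars1 left out for its scale; filled points passed the threshold, blue is cytosolic and orange mitochondrial, and the dashed line is the median of all entries tested. Filled points are 3 at the 8-cell stage, all blue, and 10 at the morula stage, 7 blue and 3 orange, and all lie below 0.

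At the morula stage more members were lower. Of the 27 tested, 10 fell past the threshold and none rose, against 10.7% lower and 7.16% higher of all 9685 entries tested. They were 7 of the 18 cytosolic members, Gars1, Tars1, Aars1, Qars1, Mars1, Eprs1 and Lars1, and 3 of the 9 mitochondrial members, Ears2, Pars2 and Lars2. No member reached an adjusted p under 0.05 in limma (3 of all entries, 0.031%, did). The smallest adjusted p of a member was 0.167 from limma, and 11 members and 19.6% of all entries had an unadjusted P under 0.05. Of the 8 embryo markers tested, 5 were also lower past the threshold in TMZ morulae, against 10.7% of all entries. They were Pou5f1, Nanog, Cdx2, Tfap2c and Krt8 (log2 fold changes from -1.25 to -0.63). Dppa3 lay higher in both TMZ libraries (0.40, not past the threshold), and Krt18 (-0.20) and Gata3 (-0.0035) overlapped between groups. The part of embryo stage in the synthetase values was not tested.

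The 5 members with the response element core in the printed windows are given first, and Gars1, Tars1 and Aars1 of them passed the threshold. Eprs1, Mars1 and Qars1, whose windows lacked the core, passed too, where 10.7% of all entries were lower. A link between the core and the change was not tested. Gars1 stood at 30.7 and 27.7 FPKM in control and 17.8 and 17.2 FPKM in TMZ morulae. The TMZ libraries lay well below the controls, with a log2 fold change of -0.71 (SE 0.17, limma adjusted p = 0.167), and the call held without each library in turn. At the 8-cell stage Gars1 overlapped between groups, at 28.5 and 21.5 FPKM in control and 21.0 and 25.5 FPKM in TMZ.

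Tars1, the cytosolic threonyl enzyme, stood at 19.2 and 15.5 FPKM in control and 13.2 and 7.82 FPKM in TMZ morulae. The groups did not overlap but the TMZ libraries were far apart, and the log2 fold change was -0.71 (SE 0.27, limma adjusted p = 0.233). Without TMZ replicate 1 it was -1.05 and without TMZ replicate 2 it was -0.36, which did not pass. At the 8-cell stage Tars1 had 17.0 and 7.67 FPKM in control and 5.02 and 6.90 FPKM in TMZ, a log2 fold change of -0.86 that did not pass (SE 0.44, limma adjusted p = 0.786). Its mitochondrial partner Tars2 stood at 1.59 and 2.79 FPKM in control and 1.37 and 1.23 FPKM in TMZ morulae, below both controls but not past the threshold (log2 fold change -0.45).

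Aars1 stood at 3.28 and 3.34 FPKM in control and 1.58 and 1.76 FPKM in TMZ morulae. Controls and TMZ libraries were each close together, with a log2 fold change of -0.69 (SE 0.21, limma adjusted p = 0.188). Of its exonic bases 15.1% lie in exons of other genes, the largest overlap being with Exosc6 on the same strand. Fragments in that overlap cannot be given to either gene. Aars2 had 0.152 and 0.225 FPKM in control and 0.346 and 0.0663 FPKM in TMZ morulae. Iars1 and Yars1, which also hold the core, had log2 fold changes of -0.21 and -0.31 and did not pass.

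Qars1 and Lars1 passed at both stages. Qars1 stood at 25.3 and 24.1 FPKM in control and 16.1 and 14.2 FPKM in TMZ morulae, with a log2 fold change of -0.68 (SE 0.18, limma adjusted p = 0.170). Lars1 stood at 13.4 and 13.8 FPKM in control and 8.76 and 9.75 FPKM in TMZ morulae, with a log2 fold change of -0.51 (SE 0.19, limma adjusted p = 0.222). Neither gene overlapped between groups at either stage, and the 2 stages share no library. How many of all entries passed at both stages was not counted. At the 8-cell stage both calls hung on single libraries, as given above. After median-ratio scaling Qars1 did not pass at the 8-cell stage (-0.65). In morulae the size of Lars1 lay close to the threshold, and it did not pass when any 1 library was left out.

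Mars1, the methionyl enzyme, stood at 11.1 and 9.99 FPKM in control and 7.68 and 5.38 FPKM in TMZ morulae, with a log2 fold change of -0.63 (SE 0.23, limma adjusted p = 0.218), and with -0.41 without TMZ replicate 2, which did not pass. Eprs1, a single protein that charges both glutamate and proline, stood at 7.72 and 7.90 FPKM in control and 5.18 and 5.08 FPKM in TMZ morulae, a log2 fold change of -0.52 (SE 0.19, limma adjusted p = 0.223). Neither gene overlapped between groups. The mitochondrial Mars2 stood at 1.56 and 1.53 FPKM in control and 1.42 and 0.867 FPKM in TMZ morulae and did not pass (log2 fold change -0.26). Of its exonic bases 33.9% lie in exons of other genes, the largest overlap being with Boll on the opposite strand.

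**Figure D3:**
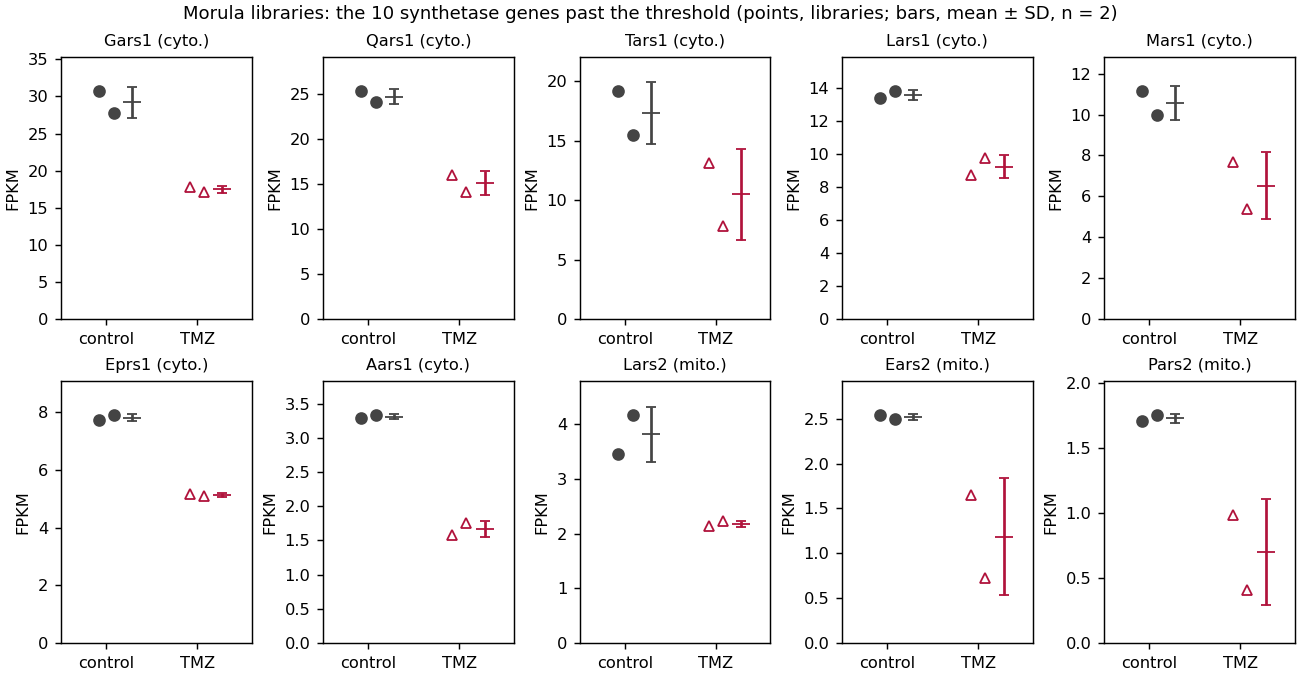
FPKM (axes from 0) of the 10 synthetase genes past the threshold in morulae, in each control library (filled circles) and TMZ library (open triangles), with the mean and SD of each group beside them (n = 2). In every panel both TMZ libraries lie below both control libraries, and the TMZ libraries of Tars1, Ears2 and Pars2 are far apart.

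The mitochondrial members that fell charge glutamate, leucine and proline. Ears2 stood at 2.54 and 2.50 FPKM in control and 1.65 and 0.723 FPKM in TMZ morulae, a log2 fold change of -0.72 (SE 0.27, limma adjusted p = 0.225). It was -1.03 without TMZ replicate 1 and -0.41, not past the threshold, without TMZ replicate 2. Of its exonic bases 13.9% lie in exons of other genes, the largest overlap being with Ubfd1 on the opposite strand. At the 8-cell stage Ears2 overlapped between groups, at 1.83 and 2.11 FPKM in control and 1.24 and 2.54 FPKM in TMZ.

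Lars2 stood at 3.46 and 4.17 FPKM in control and 2.14 and 2.22 FPKM in TMZ morulae, a log2 fold change of -0.59 (SE 0.22, limma adjusted p = 0.219). The groups did not overlap, as for its cytosolic partner Lars1.

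Pars2, the mitochondrial prolyl enzyme, stood at 1.70 and 1.75 FPKM in control and 0.986 and 0.408 FPKM in TMZ morulae. These values rest on 174 and 182 fragments in control and 100 and 40 in TMZ libraries, the fewest behind any member that passed, and the log2 fold change was -0.71 (SE 0.25, limma adjusted p = 0.213). Without TMZ replicate 2 it was -0.46 and did not pass. At the 8-cell stage its groups overlapped, at 1.04 and 0.716 FPKM in control and 0.676 and 0.793 FPKM in TMZ.

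Other members did not pass in morulae. Farsa stood at 39.3 and 40.9 FPKM in control and 31.3 and 26.0 FPKM in TMZ, without overlap, and with a log2 fold change of -0.48 fell short of the size asked for, at a P of 0.033 from limma before adjustment (adjusted p = 0.223). Fars2 overlapped between groups, at 1.07 and 0.928 FPKM in control and 0.849 and 1.38 FPKM in TMZ morulae. Vars1 had a log2 fold change of -3.97 (SE 1.80, limma adjusted p = 0.278) that did not pass. It was -0.74 without control replicate 1 and -7.20 without control replicate 2 (limma adjusted p = 0.0024), and passed the threshold in both of these fits. Vars2 stood at 0.111 and 0.366 FPKM in control and 0.123 and 0.116 FPKM in TMZ morulae. In Rars1, Nars1 and Rars2 both TMZ libraries lay above both controls, with log2 fold changes of 0.22, 0.07 and 0.32 that did not pass. Wars2 (0.05) and Fars2 (0.07) were the other members above 0.

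Of the 27 members 22 had a log2 fold change below 0 in morulae, against 57.3% of all entries, whose median was -0.076. In 20 members both TMZ libraries lay below both controls, against 33.3% of all entries, and in 3 above both, against 22.3%. The median was -0.44 for 18 cytosolic members (-0.41 without Vars1) and -0.31 for 9 mitochondrial members. The cytosolic median minus the mitochondrial one was -0.24 at the 8-cell stage and -0.13 in morulae, with no test. For 8-cell embryos it was -0.32 once library A was dropped and -0.079 once library B was. For morulae it was -0.25 with control replicate 1 dropped, 0.0077 with TMZ replicate 2 dropped, 0.0083 with limma-voom and 0.0059 in a fit of all 8 libraries, so no order of the compartments or of the stages can be read from it. With a mean of at least 5 FPKM asked for, only Rars2 and Wars2 were left of the mitochondrial members and their median was 0.18. Every mitochondrial member below 0 was among those of lower level, where Fars2 (0.07) lay above 0. Rars2 and Wars2 had posteriors of 0.971 and 0.966. At a posterior of 0.99 they were not kept, and the median of 6 mitochondrial members was -0.38.

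After median-ratio scaling, which brought the median of all morula entries to 0.0040, 7 members remained lower past the threshold, Aars1, Gars1, Mars1, Qars1, Ears2, Lars2 and Pars2, against 7.97% of all entries. Over all entries 693 higher and 1040 lower became 946 higher and 772 lower. Without control replicate 1 the lower members were 5, Gars1, Qars1, Vars1, Lars2 and Tars2 (10.9% of all entries), and without control replicate 2 they were 4, Gars1, Qars1, Tars1 and Vars1 (5.98% of all entries). Without TMZ replicate 1 they were 7, Farsa, Gars1, Mars1, Qars1, Tars1, Ears2 and Pars2 (10.9% of all entries). Without TMZ replicate 2 they were 2, Aars1 and Gars1, where 4.63% of all entries were lower. Gars1 alone passed in all of these fits, and Eprs1 and Lars1 in none. Fits of 3 libraries have less power than those of 4.

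The synthetases were also read in lists by function, against 4.96% of all entries lower at the 8-cell stage and 10.7% in morulae, and differences between lists or stages were not tested. Of 11 ATF4 target synthetases tested, 1 (Lars1) was lower at the 8-cell stage and 6 in morulae, with medians of -0.43 and -0.51. Of the 7 other cytosolic members, 2 were lower and 1 higher at the 8-cell stage and 1 (Qars1) was lower in morulae, with medians of -0.46 and -0.41. Of the 7 members of the multisynthetase complex, 2 (Lars1 and Qars1) were lower at the 8-cell stage and 4 (Eprs1, Lars1, Mars1 and Qars1) in morulae, with medians of -0.52 and -0.51, while Rars1 of the same complex lay at -0.13 and 0.22. Of 3 scaffold genes of the complex 2 were tested, and 0 passed the threshold at either stage.

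The neighbouring steps of translation were read in lists as well. Of 8 elongation factor genes tested in morulae, 5 were lower, the cytosolic Eef1a1 (log2 fold change -0.62), Eef1g (-0.60) and Eef2 (-0.80) and the mitochondrial Tufm (-0.62) and Gfm1 (-0.53), and all 8 lay below 0, against 10.7% lower and 57.3% below 0 of all entries. At the 8-cell stage 0 of 9 passed and all 9 lay below 0, against 4.96% lower and 69.1% below 0 of all entries. Of the 3 genes tested among those of tRNA end processing and export, Xpot, the export receptor of tRNA (-0.64), and Elac2, which trims tRNA 3′ ends (-0.79), were lower in morulae. Of 3 genes tested among the editing factors, which clear mischarged tRNA, Prorsd1 was higher, against 7.16% of all entries. It stood at 42.9 and 44.1 FPKM in control and 61.6 and 69.6 FPKM in TMZ morulae (log2 fold change 0.58). In 1 other of the 3 both TMZ libraries lay below both controls, with a log2 fold change of -0.497 that did not pass.

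In the ATF4 pathway list 3 of 8 genes tested were lower in morulae, against 10.7% of all entries. All 8 lay below 0, against 57.3% of all entries. Atf4 itself stood at 74.7 and 76.5 FPKM in control and 59.8 and 43.7 FPKM in TMZ morulae, a log2 fold change of -0.55 (SE 0.20, limma adjusted p = 0.213). Phgdh and Shmt2, enzymes of serine and glycine synthesis and known ATF4 targets, had log2 fold changes of -1.52 and -1.30. At the 8-cell stage Atf4 had no assigned entry, and the genes of this list that were tested differ in part from those in morulae. There 0 of 9 genes passed, against 4.96% lower and 1.35% higher of all entries. Of the 9, 5 lay below 0, against 69.1% of all entries. RNA levels do not show the amount of ATF4 protein, which is set mainly by translation.

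**Figure D4:**
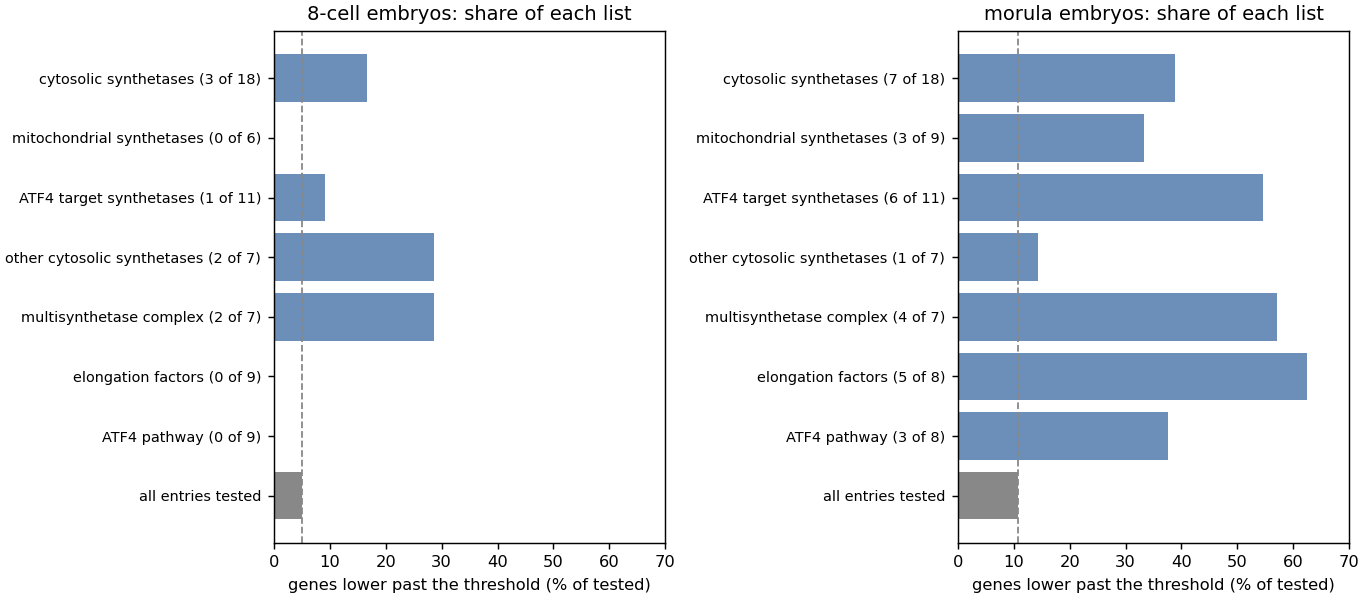
Share of the genes tested in each list that were lower in TMZ embryos past the threshold (bars, percent, from 0) at the 8-cell stage (left) and the morula stage (right), with counts in the labels and the share among all entries tested as the grey bar and dashed line; the ATF4 target and complex lists overlap. In morulae the 7 lists drawn lie above the 10.7% of all entries (smaller lists, some with no gene lower, are not drawn), and at the 8-cell stage the mitochondrial, elongation factor and ATF4 pathway lists hold 0.

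The TMZ effect at the morula stage was compared with that at the 8-cell stage in a fit of all 8 libraries, for 25 members tested. Vars1 alone had an unadjusted P under 0.05, against 8.01% of 7713 entries, and no entry had an adjusted p under 0.05 in limma. The calls of Gars1, Aars1 and Ears2 in morulae alone are therefore not shown to differ from the 8-cell stage. Their differences of log2 fold change were -0.61 (SE 0.33, limma adjusted p = 0.737) for Gars1, -0.56 (SE 0.41, limma adjusted p = 0.859) for Aars1 and -0.65 (SE 0.46, limma adjusted p = 0.857) for Ears2.

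Members below the posterior minimum entered no count above. They were tested only with the minimum lowered to 0.80, where Cars1 at the 8-cell stage (log2 fold change -0.97, limma adjusted p = 0.771) and Sars2 in morulae (-1.05, limma adjusted p = 0.161) were lower past the threshold. Cars1, the cytosolic cysteinyl enzyme, lay just outside it at a posterior of 0.949 at both stages, with 4.75 and 2.62 FPKM in control and 0.985 and 1.72 FPKM in TMZ 8-cell libraries, and with overlapping groups in morulae, at 3.04 and 3.83 FPKM in control and 3.48 and 3.71 FPKM in TMZ. Sars2, the mitochondrial seryl enzyme (posteriors 0.898 and 0.872), stood at 7.73 and 9.13 FPKM in control and 3.59 and 3.49 FPKM in TMZ morulae. Cars2 (0.809 and 0.787) and Yars2 (0.873 and 0.847) had a candidate entry at each stage, Nars2 (0.812) in morulae only, and Wars2 passed in morulae (0.966) but not at the 8-cell stage (0.916). The members just inside the minimum were Wars2, Rars2 (0.976 and 0.971), Pars2 in morulae (0.974), Aars2 (0.984 and 0.979) and Sars1 (0.980 at the 8-cell stage). For Iars1, 16.9% of its 31-base stretches occur elsewhere in the genome, for Kars1 9.26% and for the other assigned members under 8%, so some of their fragments may belong to copies.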

How the data were processed

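RNA-seq libraries of control and TMZ-treated 8-cell embryos and morulae were made with a full-length mRNA amplification kit, 2 in each group. The authors trimmed reads with fastp 0.23.4, aligned them to GRCm39 with STAR 2.7.9a, counted fragments with featureCounts 2.0.6 and deposited FPKM values, a table per stage, without gene names. The Ensembl release and the strand setting are not given in the sources used here, and the order of tools follows the study's methods while the versions come from the submitters' processing notes.

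Library totals (31672356 to 64814423) and the smallest lengths that make every value a whole number of fragments were solved from the deposited FPKM values. A pair hidden Markov model aligned these lengths to exonic lengths of 56706 GENCODE vM39 genes in identifier order (transcript numbers up to 250000, chosen by the longest ordered chain of equal lengths). Of 31899 and 29202 entries, 24836 and 21737 were assigned at a posterior of at least 0.95. Versions with other update rules for the model were replaced before member values were read. With 1000 assigned genes taken out of the reference, 31 of their entries went to another gene at each stage. Of 19319 genes assigned in both tables, 2 with incompatible lengths were dropped. Coordinates printed are those of the RefSeq windows (GRCm38.p6), which were used for promoter letters only.

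TMZ was compared with control in each table by limma 3.58.1 (trend, R 4.3.3) on log2(FPKM + 1), without covariates, for entries that averaged 1 FPKM or more. A fold change on this scale understates that of low genes. Genes were called at an unadjusted P under 0.05 with a size beyond 0.5 on the log2 scale, and adjusted p-values are Benjamini-Hochberg over all entries. The study tested counts with DESeq2, which was not repeated because the deposited unit is FPKM. The fits were tested on simulated data. Members and lists were chosen with earlier results of these data known, so that no count over a list is independent evidence. All 35 members may be named, with values in each library for those past the threshold and their partner in the other compartment, and genes of other lists only where they passed. Members just below the minimum posterior, the marker values and the gene sharing exons with Vars1 were named after their values were seen. Alternatives were a pseudocount of 0.1, no filter, a minimum mean of 5 FPKM, median-ratio scaling, limma-voom on recovered fragments, 1 fit of all 8 libraries, posteriors of 0.99 and 0.80, a replicate block and leaving out each library. The posterior of 0.80 and the medians without Vars1 were added after the data were seen. Protein features were not analysed here, and 1 promoter stretch is not reported here.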

Additional observations from a re-analysis of the deposited data

Results flagged for a closer look

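The effect of TMZ on the entry assigned to Vars1 differed between stages before, but not after, adjustment over all entries. Its log2 fold change in morulae minus that in 8-cell embryos was -9.06 (SE 3.66, limma adjusted p = 0.574), and it was the only synthetase gene among 25 with an unadjusted P under 0.05 for this difference. TMZ libraries were high at the 8-cell stage (2744 and 728 FPKM) and low in morulae (0.685 and 0.687 FPKM), but the control libraries were split at each stage, 881 against 0.955 FPKM and 247 against 1.82 FPKM. The difference ran from -13.47 without 8-cell control replicate 1 to -4.65 without 8-cell control replicate 2, and no longer had a P under 0.05 without 8-cell control replicate 2, 8-cell TMZ library A, morula control replicate 1 or either morula TMZ library. With 2 libraries in a group, no test for a single outlying library was made.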

How the results depend on the processing

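At the 8-cell stage 3 of 24 members tested were lower, against 4.96% of all entries. With a pseudocount of 0.1 they were 3 of 24 (4.71% of all entries) and with limma-voom 3 of 24 (3.37%). With no filter they were 3 of 29 (1.76%), and with a mean of at least 5 FPKM 3 of 17 (4.23%). At a posterior of 0.99 they were 3 of 22, and at 0.80, with Cars1 added, 4 of 29 (4.96% at both). After median-ratio scaling 1 of 24 remained (2.79%), and with all 8 libraries in 1 fit 6 of 25 were lower (10.6%). Counts with a library left out are given above. The 1 higher member, Vars1, was 0 with a pseudocount of 0.1, no filter, a mean of at least 5 FPKM or all 8 libraries in 1 fit, and 0 to 2 when a library was left out. In morulae 10 of 27 members tested were lower, against 10.7% of all entries. With a pseudocount of 0.1 they were 11 of 27 (10.9% of all entries) and with limma-voom 10 of 27 (12.9%). With no filter they were 8 of 30 (3.76%), and with a mean of at least 5 FPKM 7 of 19 (11.6%). At a posterior of 0.99 they were 8 of 21, and at 0.80, with Sars2 added, 11 of 30 (10.7% at both). After median-ratio scaling 7 of 27 remained (7.97%), and with all 8 libraries in 1 fit 4 of 25 were lower (5.45%). Counts with a morula library left out are also given above. The mitochondrial median of morulae (-0.31) was -0.44 with a pseudocount of 0.1, -0.47 with limma-voom, -0.45 with all 8 libraries in 1 fit, 0.18 with a mean of at least 5 FPKM and -0.45 to -0.26 when a library was left out. Members whose effect differed between stages were 2 after median-ratio scaling (Gars1 and Vars1) and 0 to 3 when a library was left out. The cause of these changes was not tested. No member that passed changed direction under any of these alternatives. Over all entries, 497 lower and 135 higher at the 8-cell stage became 280 and 268 after scaling, 221 and 60 with a mean of at least 5 FPKM and 814 and 145 with all 8 libraries, and 190 to 1569 and 86 to 495 when a library was left out. In morulae, 1040 lower and 693 higher became 597 and 461, and 420 and 315, under the latter 2 settings, and 449 to 1062 and 344 to 823 when a library was left out. Same-numbered morula libraries share only a number (correlation of their deviations 0.0762, 2 pairs). A replicate block gave 10 lower members in morulae, with Vars1 in and Eprs1 out, 1151 lower and 838 higher entries, and 229 entries with an adjusted p under 0.05 in limma against 3 without it. No paired analysis was possible for the 8-cell stage because its TMZ columns carry no replicate number. Pars2 with 40 to 182 fragments in morulae and members under 1 FPKM mark where depth limits the values.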
